A study of Mus musculus with 50 samples.

Results

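The 78 protein-coding genes whose symbols start with Mrpl or Mrps followed by a number, the mitochondrial ribosomal protein genes of the mouse, were followed through the first day of CD8+ T cell activation. They were picked by symbol, with earlier results of these data known, and are 78 of the 21647 gene rows of the count table. All 78 passed the filter on low counts and were tested together with 13216 other genes. By the structure of the ribosome, 51 of them belong to the large subunit and 26 to the small subunit. The remaining gene, Mrps36, carries the name but its product is known as a component of the 2-oxoglutarate dehydrogenase complex.

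The measurements are mRNA sequencing counts of CD8+ T cells taken with anti-CD8a magnetic beads from spleens of 10-week-old mice of strain background C567BL/6J (as the labels spell it). There were 5 wild-type mice (WT) and 5 knockout mice (KO). Cells of each mouse were sequenced before activation (0 h, naive) and after 2, 6, 12 and 24 h in culture on plate-coated anti-CD3e (2 ug/ml) with soluble anti-CD28 (2 ug/ml), the antibodies that engage the T cell receptor and its costimulatory receptor. This gave 10 groups of 5 libraries and 50 libraries in all, and both genotypes received the same activation. The 5 libraries of a group came from 5 mice, and the mouse numbers run through all times of a genotype. The labels name no other sort, so each library is a bulk sample of the cells that the beads retained.

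Mitochondria carry their own ribosome, which translates the few proteins encoded in mitochondrial DNA, all of them membrane subunits of the respiratory chain and ATP synthase. Its RNAs are made inside the organelle, but every protein of the ribosome is encoded in the nucleus, translated in the cytosol and imported. Some of these proteins descend from bacterial ribosomal proteins and others were added later in mitochondria. Naive T cells are small and metabolically quiet, and their activation is known for growth of the mitochondrial compartment before the first division.

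Several libraries differed from the others of their group in ways that touch every WT result. Library totals ranged from 9571625 to 31293872 counts. In WT mice 1 and 4 the 12 listed genes of G2 and mitosis summed to 4747 to 5896 CPM (counts scaled to a common library size, with TMM factors) at 0 h, against 158 to 180 in WT mice 2 and 5 and 280 to 1054 in the KO mice. The 9 listed immature thymocyte genes summed to 1505 to 1926 CPM in WT mice 1 and 4, against 230 to 437 in the other 3 WT mice and 273 to 431 in KO. The 6 CD8+ T cell marker genes were present in all 50 libraries and lowest at 0 h in WT mice 1 and 4, at 2059 to 2675 CPM. In the 0 h library of WT mouse 3, genes with less than 1 kb of exon took 16.9% of counts, against 4.18% to 9.58% in the other 49 libraries. The 2 h library of WT mouse 3 was the smallest, and the 0 h library of KO mouse 3 had the fewest detected genes, 11689. The results are therefore given for all 50 libraries and, where they moved, without WT mice 1 and 4 and the 0 h library of WT mouse 3, a combination chosen after seeing the data and called the reduced set of 39 libraries. It leaves 2 WT libraries at 0 h and 3 at each later time. The source of these library differences was not tested. In bulk RNA a lower value can come from fewer cells of a type or from less RNA per cell, and these cannot be told apart.

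**Figure D1:**
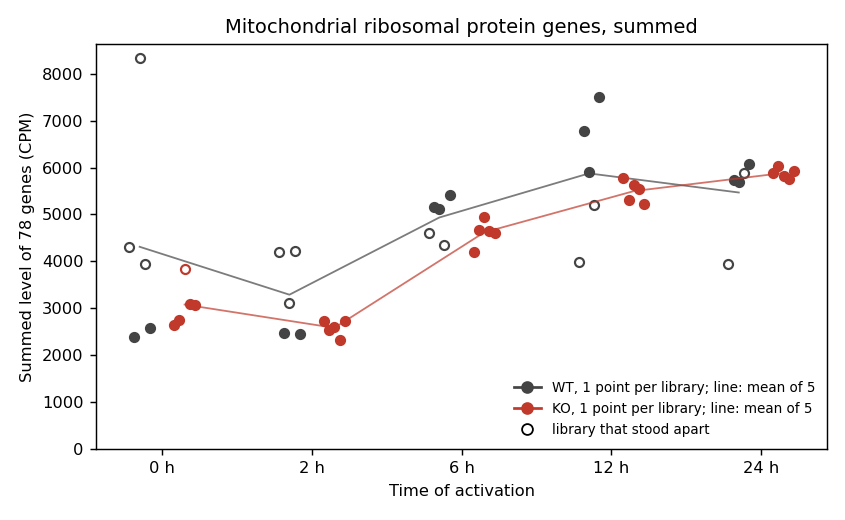
Summed level of the 78 genes in CPM (y axis, linear from 0) at each time of activation (x axis, not to scale), with 1 point per library, WT in grey and KO in red. Lines join the means of 5 libraries, and open points are the libraries that stood apart; the KO points stay within 2318 and 6037 CPM, while the WT points at 0 h run from 2387 to 8337.

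The 78 genes lie on 17 chromosomes. Of the 78, 33 (42.3%) start within 1 kb of a protein-coding gene on the opposite strand, against 16% of the 12957 tested protein-coding genes. Such shared start regions include Mrps12 with the mitochondrial seryl-tRNA synthetase gene Sars2, Mrpl43 with the mitochondrial DNA helicase gene Twnk, and Mrps11 with Mrpl46, 2 members that overlap each other at their 5′ ends. The exons of 22 members overlap those of another counted gene. The strand setting of the counting is not given in the sources used here, so for these members reads in the shared bases cannot be assigned. The overlap is largest for Mrps34 (77.8% of exon bases, with Mapk8ip3 and Nme3), Mrps25 (69.8%, with Nr2c2) and Mrpl19 (36.0%, with Gcfc2), and their values are uncertain for that reason.

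Stretches before the start sites of 5 members that were among the 7 with the largest KO increase at 24 h are shown because the members moved together. They come from RefSeq (GRCm38.p6), read 5′ to 3′ on the strand of the gene, lie outside annotated exons, and have matched motifs in capitals. Each stretch was picked to hold the most motif matches, so the stretches do not show how common a motif is. Mrpl45 and Mrpl17, also among the 7, are not shown.
Mrps6: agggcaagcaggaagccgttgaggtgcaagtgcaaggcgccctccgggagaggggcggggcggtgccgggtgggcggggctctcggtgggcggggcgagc
Mrpl12: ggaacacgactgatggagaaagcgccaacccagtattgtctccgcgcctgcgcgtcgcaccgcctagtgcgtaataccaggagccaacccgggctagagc
Mrpl20: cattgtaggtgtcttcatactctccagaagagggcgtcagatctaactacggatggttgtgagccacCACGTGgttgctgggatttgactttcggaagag
Mrps22: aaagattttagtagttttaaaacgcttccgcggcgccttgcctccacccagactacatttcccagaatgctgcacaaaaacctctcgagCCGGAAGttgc
Mrps27: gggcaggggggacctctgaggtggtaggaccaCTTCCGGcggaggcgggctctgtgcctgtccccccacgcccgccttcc
Mrps6, on the plus strand, is read from chr16:92058170-92058269, Mrpl12 (plus) from chr11:120484513-120484612, Mrpl20 (plus) from chr4:155802778-155802877, Mrps22 (minus) from chr9:98601680-98601779 and Mrps27 (plus) from chr13:99344706-99344785. The capitals in Mrpl20 are the E-box CACGTG, the sequence that Myc with Max is known to bind. The capitals in Mrps22 and Mrps27 are CCGGAAG, the core read by GABP, or its reverse complement. The stretches of Mrps6 and Mrpl12 hold none of the 4 motifs searched.

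Promoter sequences of 300 bases (250 before to 50 after the start) were at hand for 69 of the 78 members. On either strand, CCGGAAG (GABP) was in the promoters of 26 of 69 members (37.7%), against 9.93% of 27025 genes with such a promoter. The core GCGCATGC of NRF1, a regulator of nuclear genes for mitochondria, was in 8 (11.6% against 3.05%), and AAGATGGCG, the core of YY1, was in 8 (11.6% against 1.64%). The E-box CACGTG was in 5 (7.25% against 8.09%), those of Mrpl2, Mrpl20, Mrpl36, Mrpl37 and Mrps18c. The 27025 genes were not limited to those tested here, unlike the genes of the neighbour comparison, so the shares have unlike backgrounds. A match is a description of letters and not a bound site. Of the 26 members with the GABP core, 18 were higher at 24 h in KO, and of the 43 without it, 37 were. For NRF1 and for YY1 the counts were 7 of 8 and 48 of 61, and for the E-box 5 of 5 and 50 of 64. The share of all genes tested that were higher there was 30.7%. The difference between members with and without a motif was not tested.

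Abundance differed widely among the members. Divided by the length of the principal transcript, the mean over all libraries ran from 3.76 CPM per kb for Mrps36 to 177 for Mrpl52, with a median of 37.7. After Mrpl52 the highest levels per kb were those of Mrpl33 (164), Mrpl20 (148), Mrpl12 (125) and Mrpl30 (115). The lowest after Mrps36 were Mrps33 (5.46), Mrps25 (6.54), Mrpl48 (6.71) and Mrpl17 (8.66). Mrps36 and Mrpl48 have annotated pseudogenes, and whether reads were lost to these was not tested. This order depends on the transcript chosen: with the union of exons in place of the principal transcript Mrpl33 moved from rank 2 to rank 61. The rank correlation of the 2 orders was 0.779 across the 78 genes, which share libraries and are not independent.

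In KO cells most members were higher at 12 and 24 h of activation than before it. The level summed over the 78 genes in KO mice 1 to 5 was 2634, 2757, 3837, 3090.0 and 3071 CPM at 0 h. It was 2735, 2534, 2597, 2318 and 2719 at 2 h and 4205, 4667, 4952, 4650.3 and 4614 at 6 h. At 12 h the sums were 5788, 5300.1, 5634, 5549 and 5226, and at 24 h 5887, 6037, 5828, 5749.5 and 5928. All 5 values at 6 h lay above all 5 at 0 h, and the 24 h values, 5886 ± 108 (SD, n = 5), were the most alike among mice. In this and all later lists of values the mice are in the order 1 to 5.

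Each member was then tested against the 0 h libraries of its genotype with edgeR's quasi-likelihood test, with p-values adjusted by the Benjamini-Hochberg method over all 13294 genes and a threshold of 0.05. The 4 later times of a genotype share its 0 h libraries. At 24 h in KO, 63 of 78 members were higher and 1 was lower, with a median log2 change of 1.00. Of all genes tested, 30.7% were higher and 28% lower, 58.7% in either direction, with a median of 0.02. The groups did not overlap for 65 members in the upward direction and 1 in the downward, against 34.5% and 26.5% of all genes. At 12 h 55 members were higher and none lower (27.8% and 25% of all genes, 52.8% in either direction), with a median of 0.79. At 6 h 39 were higher and 2 lower (26.8% and 22.4%, 49.2% in either direction), with a median of 0.58. The summed G2 and mitosis genes in KO were 71.5 to 90.1 CPM in mice 1 to 4 and 316 in mouse 5 at 6 h. At 24 h they were 3501 to 3860 CPM, and the part of cell division in the increase was not tested. The 5 B cell markers summed to 72.1 to 286 CPM in KO at 0 h and 13.2 to 21.7 at 24 h, the 4 myeloid markers to 15.6 to 39.0 and 2.65 to 10.7, and the 6 erythroid and platelet markers to 11.4 to 46.3 and 0.193 to 0.652. The part of these other cells in the increase was not tested. Library totals as the scale, instead of TMM, moved the median of all genes in the KO comparisons by -0.18 to -0.16. With it 59 members were higher and 1 lower at 24 h, and their median was 0.84.

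Both subunits took part. In KO at 24 h 44 of 51 large subunit genes were higher and 1 lower, with a median of 0.99, and 18 of 26 small subunit genes were higher and none lower, with a median of 1.01. By descent, 36 of 45 members with bacterial relatives were higher (1 lower, median 1.00), as were 23 of 29 found only in mitochondrial ribosomes (none lower, median 0.86). Mrps18a, Mrps18b and Mrpl55 were left unclassified in this count, and Mrps36 was not counted. The difference between these classes was not tested.

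**Figure D2:**
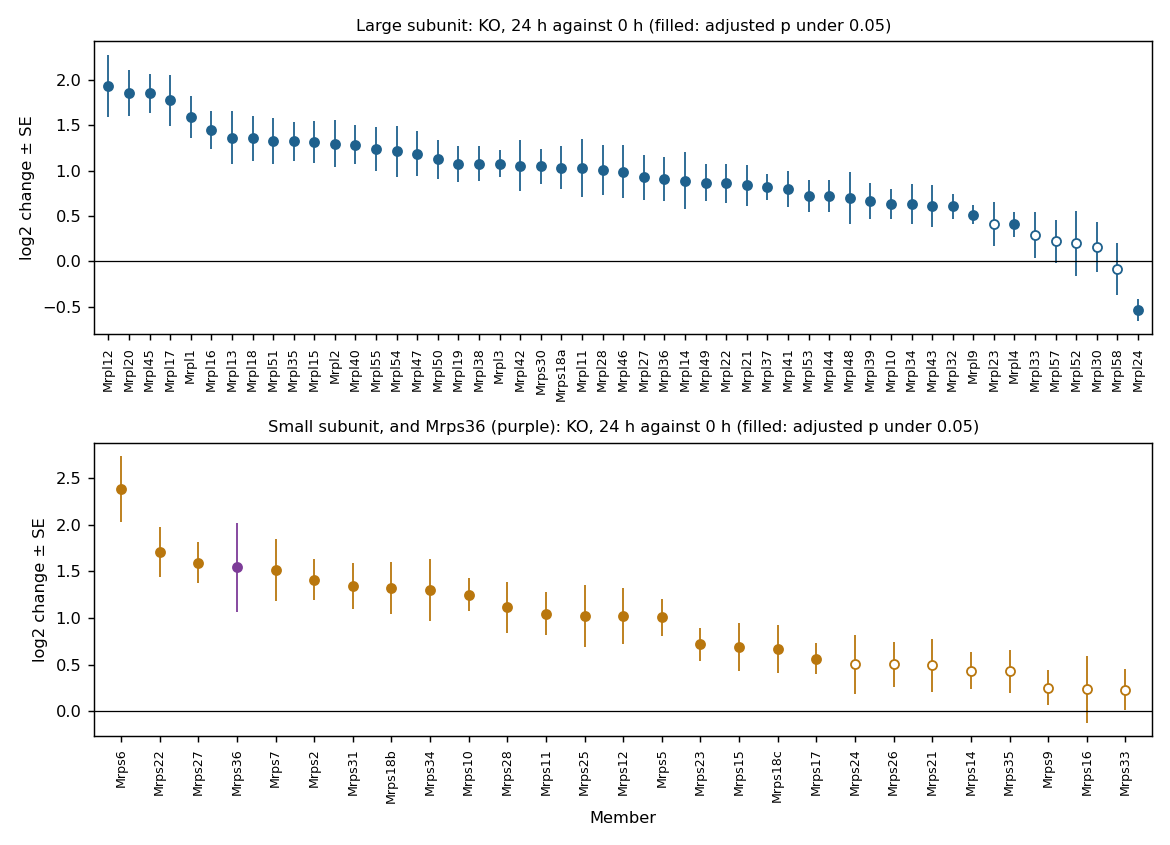
Log2 change from 0 h to 24 h in KO for each member (y axis, ± SE from the edgeR fit), with the large subunit above and the small subunit with Mrps36 below. Filled points had an adjusted p under 0.05; the values run from 2.39 for Mrps6 to -0.54 for Mrpl24, and both panels lie mostly above 0.

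Mrps6, a small subunit protein of bacterial descent on chr16:92058270-92112227, had the largest increase at each of 6, 12 and 24 h in KO. Its levels in KO were 12.3, 17.6, 17.1, 17.1 and 22.6 CPM at 0 h and 27.6, 28.7, 22.1, 19.9 and 25.5 at 2 h. At 6 h they were 99.2, 124, 113, 116 and 104, and at 24 h 95.7, 95.0, 87.6, 81.7 and 93.0. The 6 h values exceeded every 0 h value, and the log2 change was 2.68 ± 0.36 (SE; adjusted p = 7.1e-08) at 6 h and 2.39 ± 0.35 (SE; adjusted p = 3.92e-07) at 24 h. Its mean was 111 ± 9.81 (SD, n = 5) at 6 h and 111 ± 7.79 at 12 h, above that at 24 h, while 50 of the 78 members had their highest KO mean at 24 h and 21 at 12 h. Of its exon bases 10.4% are shared with Slc5a3, a transporter gene on the same strand, and reads there cannot be assigned.

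Mrpl12, on chr11:120484613-120489065, builds the flexible stalk of the large subunit and is also known to bind the mitochondrial RNA polymerase. In KO it was 51.8, 55.8, 105, 69.5 and 81.1 CPM at 0 h, 53.4, 49.2, 52.9, 43.1 and 61.2 at 2 h and 268, 288, 272, 282 and 278 at 24 h. Every 24 h value was more than any 0 h value, with a log2 change of 1.94 ± 0.34 (SE; adjusted p = 7.59e-06). Its course was the one most like that of the rest: across the 25 KO libraries its Spearman correlation with the sum of the other 77 members was 0.985. That coefficient had a median of 0.905 over the members and exceeded 0.8 for 60 of them, and the libraries share time points, so it describes the common course only.

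Mrpl20 (chr4:155802878-155809975), a large subunit protein of bacterial descent, was 41.0, 44.5, 53.5, 47.2 and 44.7 CPM at 0 h and 173, 172, 166, 155 and 169.5 at 24 h in KO. The log2 change was 1.86 ± 0.26 (SE; adjusted p = 1.22e-07), and the E-box of its promoter is in the stretch printed above. Mrpl45, a relative of membrane-anchoring proteins that holds the ribosome to the inner membrane, was 31.9, 31.1, 42.4, 37.5 and 35.9 CPM at 0 h and 139, 133, 125, 125 and 124 at 24 h. It increased by 1.85 ± 0.21 (SE; adjusted p = 4.08e-09), and it did so gradually, with a change of 0.74 at 6 h and 1.31 at 12 h. Mrpl17, by contrast, had reached 1.65 at 6 h and was at 1.77 at 24 h. Mrps22 (1.71) and the pentatricopeptide repeat protein gene Mrps27 (1.59), both of the small subunit and without bacterial relatives, were also higher at 24 h.

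**Figure D3:**
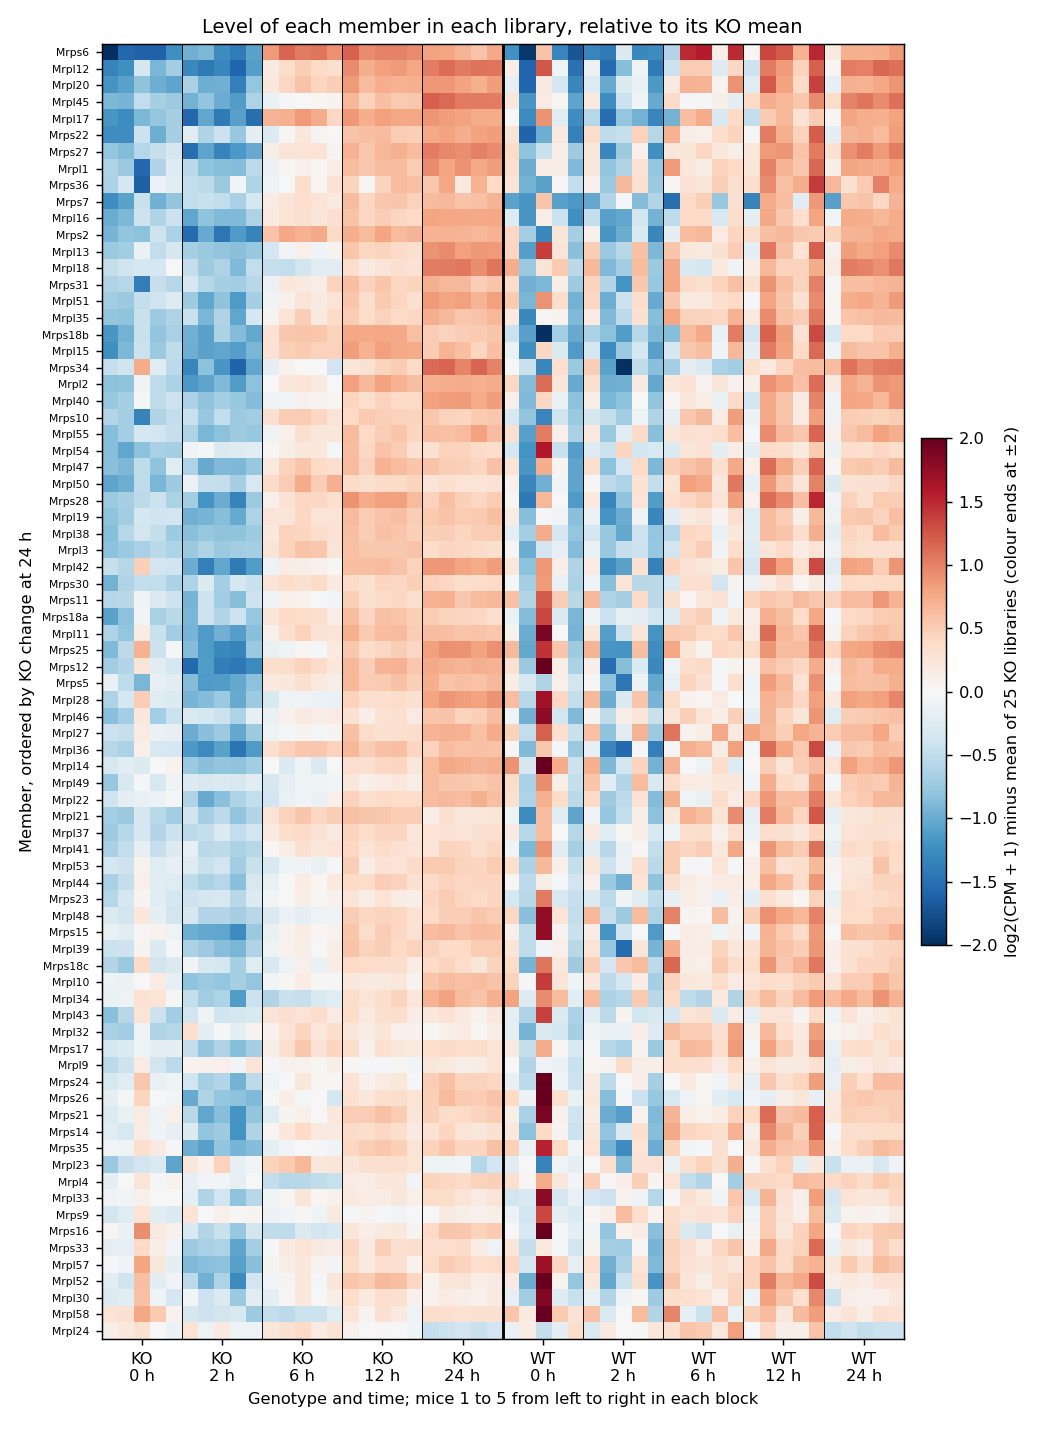
Each row is 1 of the 78 members, ordered by KO change at 24 h, and each column 1 library, KO on the left and WT on the right, mice 1 to 5 within each time. Colour is log2(CPM + 1) minus the member's mean over the 25 KO libraries; KO shifts from blue at 0 and 2 h to red at 12 and 24 h in most rows, and in WT the 0 h column of mouse 3 is red for many members.

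At 2 h in KO most members, 52 of 78, were called in neither direction. There 23 were lower and 3 higher (19.6% and 20.3% of all genes, 39.9% in either direction), so members were called no more often than genes at large, 33.3%, and mostly downward, with a median of -0.30 against -0.08 for all genes. Of the small subunit 13 of 26 were lower and none higher, with a median of -0.59; of the large subunit 10 of 51 were lower and 3 higher, with a median of -0.29. The difference between subunits was not tested. Of the 23 that fell at 2 h, 16 were above their 0 h level at 24 h and 7 were called in neither direction there. The count of calls at 2 h was 13 without KO mouse 4 and 14 without KO mouse 3, for which the shares of all genes are not given here. It was 55 (46 lower, 9 higher, against 63.5% of all genes called) in the reduced set of 39 libraries. The reduced set keeps every KO library, but the filter, scaling and estimate of the spread are shared with the WT libraries.

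Mrps12, whose bacterial counterpart forms part of the decoding centre, was lower at 2 h and higher at 24 h than at 0 h. In KO it was 24.3, 26.6, 48.0, 34.0 and 31.3 CPM at 0 h and 12.9, 17.9, 14.8, 14.2 and 16.1 at 2 h. It was 68.7, 66.6, 64.7, 67.3 and 65.5 at 24 h. The 3 sets did not overlap, with log2 changes of -1.11 ± 0.30 (SE; adjusted p = 0.00314) at 2 h and 1.02 ± 0.30 (SE; adjusted p = 0.00396) at 24 h. Mrpl57 fell from 31.2, 29.7, 55.0, 37.3 and 27.8 CPM to 16.6, 17.3, 17.4, 14.4 and 17.3, a change of -1.12 ± 0.24 (SE; adjusted p = 0.000227). At 24 h it was not called (0.22). Mrps35 (-1.04) and Mrpl42 (-0.99) were lower as well. Mrps34 had the largest fall at 2 h, -1.33 ± 0.34 (SE; adjusted p = 0.00142), on low levels of 4.94, 5.19, 12.6, 5.89 and 4.68 CPM at 0 h and with most of its exon bases shared with other genes.

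The 3 members that rose at 2 h in KO were Mrpl23, Mrpl32 and Mrpl9, all of the large subunit and of bacterial descent. Mrpl9 was 68.4, 74.2, 111, 76.8 and 68.5 CPM at 0 h and 104, 106, 107, 95.6 and 119.6 at 2 h. The 0 h library of KO mouse 3 overlapped the 2 h values and the other 4 did not, and the log2 change was 0.42 ± 0.11 (SE; adjusted p = 0.00153). Mrpl32, whose product is cut by the mitochondrial m-AAA protease before it joins the ribosome, was 30.2, 29.3, 45.1, 31.4 and 31.9 CPM at 0 h and 60.7, 41.9, 46.4, 41.8 and 49.9 at 2 h, a change of 0.52 ± 0.14 (SE; adjusted p = 0.00194). Both were higher than at 0 h at all 4 later times in KO and in WT. Mrpl23 changed by 0.83 at 2 h and 1.17 at 6 h, and its 0.41 at 24 h was not called.

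**Figure D4:**
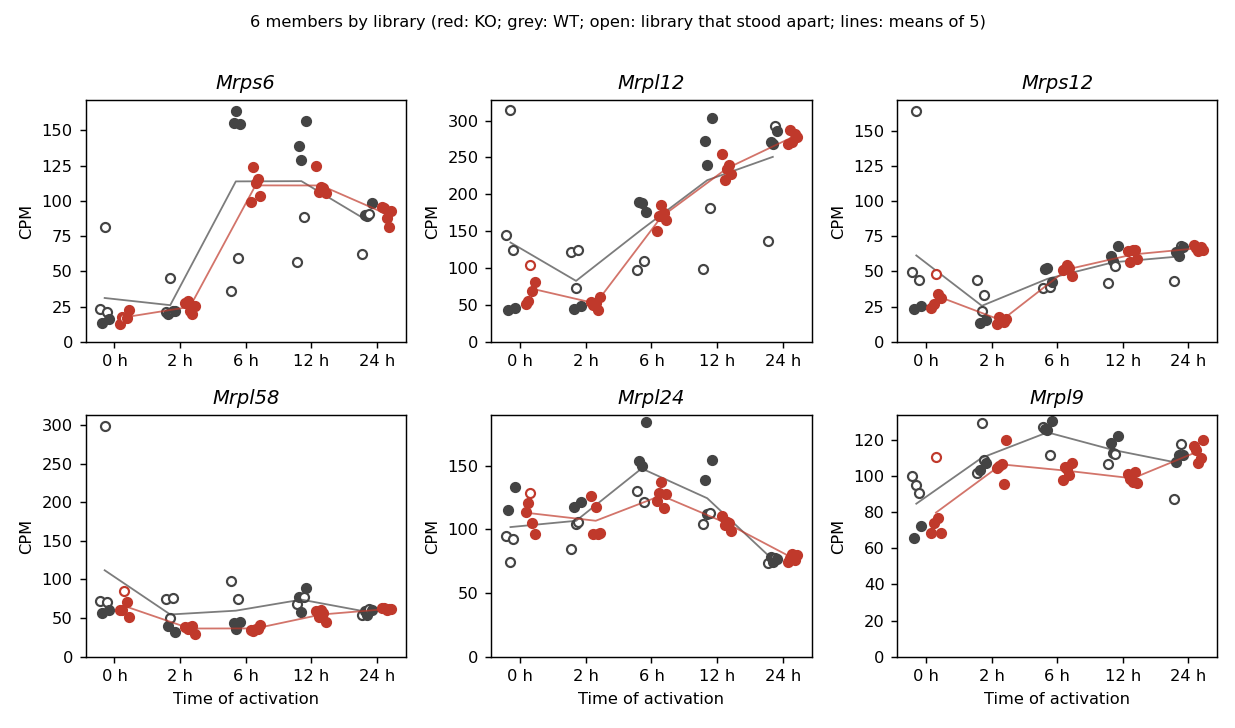
Levels of 6 members in CPM (y axes, linear from 0, each with its own range) by time of activation, 1 point per library, KO in red and WT in grey, open points for libraries that stood apart and lines through the means of 5. Mrps6 and Mrpl12 climb, Mrps12 dips at 2 h, Mrpl58 is low at 2 and 6 h in KO, Mrpl24 is lowest at 24 h and Mrpl9 is higher from 2 h on.

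A few members took another course. Mrpl24, a large subunit protein of bacterial descent, was the only one lower at 24 h in KO: 113, 121, 128, 105 and 96.3 CPM at 0 h and 74.2, 77.2, 80.6, 76.1 and 79.5 at 24 h, without overlap, a change of -0.54 ± 0.12 (SE; adjusted p = 0.000237). It was also lower in WT at 24 h, with a change of -0.42 ± 0.12 (SE; adjusted p = 0.00476), and its correlation with the other members over the KO libraries was -0.37. Of its exon bases 26.3% are shared with Rrnad1 on the other strand. Mrpl58, the hydrolase that frees peptides from stalled mitochondrial ribosomes, was 59.9, 60.9, 84.9, 71.1 and 51.6 CPM at 0 h in KO, 38.9, 36.6, 37.9, 39.8 and 29.8 at 2 h and 35.2, 34.0, 36.4, 36.2 and 41.7 at 6 h. Its change was -0.84 ± 0.29 (SE; adjusted p = 0.0142) at 6 h, and it was back at 62.9, 62.6, 60.1, 61.6 and 61.4 by 24 h, where it was not called. Mrpl4 was lower at 6 h in both genotypes, with a change of -0.56 ± 0.13 (SE; adjusted p = 0.000636) in KO and -0.54 ± 0.13 (SE; adjusted p = 0.0013) in WT, and higher at 24 h in KO (0.41). In KO 6 members were called at no time: Mrpl52, Mrpl33, Mrpl30, Mrps9, Mrps24 and Mrps16. Their changes at 24 h lay between 0.16 for Mrpl30 and 0.50 for Mrps24, with SEs of 0.19 to 0.36, and Mrpl52, Mrpl33 and Mrpl30 are among the 5 most abundant members per kb.

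Members with a further role or a paralogue are given singly, and their difference from the rest was not tested. Mrps18a, Mrps18b and Mrps18c are known as relatives of 1 bacterial protein, though only Mrps18c was counted as such in the classes above. Mrps18a belongs to the large subunit and the others have been placed in the small one. In KO at 24 h the changes were 1.03 ± 0.24 (SE; adjusted p = 0.000353) for Mrps18a, 1.32 ± 0.28 (SE; adjusted p = 9.22e-05) for Mrps18b and 0.67 ± 0.25 (SE; adjusted p = 0.0222) for Mrps18c. Mrps18b was highest at 12 h (73.5, 72.6, 73.8, 72.3 and 64.6 CPM, from 18.4, 21.6, 30.9, 24.2 and 26.8 at 0 h). Mrps18c was not called at 6 h (0.23) while Mrps18a and Mrps18b were. Mrpl11, at the base of the stalk, changed by 1.03, Mrpl41, at the exit of the peptide tunnel and also linked to apoptosis, by 0.80, and Mrpl44, with a fold of the RNase III family, by 0.72, all 3 higher at 24 h. Mrps30, a large subunit protein despite its name, increased by 1.05 ± 0.19 (SE; adjusted p = 1.51e-05). Mrps36, the 2-oxoglutarate dehydrogenase component, was scarce at 0.99, 1.45, 0.00, 1.85 and 1.61 CPM at 0 h and 3.52, 4.29, 2.54, 4.03 and 3.09 at 24 h in KO. It increased by 1.54 ± 0.48 (SE; adjusted p = 0.00554), and 1 of its 0 h libraries held no read of it.

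Other genes of mitochondrial gene expression are given by list for comparison, from lists chosen with earlier results of these data known. In KO at 24 h 3 of 5 mitoribosomal proteins with other symbols were higher and none lower (median log2 change 0.82), among them Ptcd3 at 0.94 ± 0.27 (SE; adjusted p = 0.00291) and Gadd45gip1 at 1.09 ± 0.35 (SE; adjusted p = 0.0082). Of 27 assembly factors 14 were higher and 4 lower (median 0.63), with the rRNA methyltransferase gene Mrm3 up by 1.66 ± 0.25 (SE; adjusted p = 7.18e-07) and Mettl17 down at -1.17 ± 0.17 (SE; adjusted p = 4.65e-07). Of 16 translation factors 7 were higher and 1 lower (median 0.71), including the elongation factor genes Gfm1 and Tsfm. Of 20 genes for mitochondrial aminoacyl-tRNA synthesis 13 were higher and 2 lower (median 0.70). Import genes had the largest median, 1.14, with 22 of 27 higher and 1 lower. Among them the outer membrane channel gene Tomm40 changed by 2.42 ± 0.28 (SE; adjusted p = 2.79e-09). Of 78 nuclear genes for respiratory chain and ATP synthase subunits 33 were higher and 3 lower (median 0.49). Of 84 cytosolic ribosomal protein genes 12 were higher and 23 lower (median -0.27), against the 63 and 1 of 78 members; the difference between the lists was not tested.

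In WT the same comparison rested on libraries that disagreed at 0 h. The summed level in WT mice 1 to 5 was 4315, 2387, 8337, 3936 and 2578 CPM at 0 h and 4189, 2471, 3118, 4217 and 2447 at 2 h. It was 4605, 5159, 5124, 4358 and 5426 at 6 h and 3990.3, 6789, 5905, 5196 and 7503 at 12 h. At 24 h it was 3945, 5742, 5689, 5885 and 6082. Mice 2 and 5 had the lowest values at 0 h and the highest at 12 h, while mouse 1 stayed between 3945 and 4605 at all 5 times. Mouse 3 at 0 h had the highest sum of all 50 libraries.

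With all libraries 29 members were higher and 2 lower in WT at 24 h (19.9% and 24.2% of all genes, 44.1% in either direction), with a median of 0.35. At 12 h 36 were higher and 1 lower (19.3% and 20.2%, 39.4% in either direction; median 0.52), and at 6 h 25 and 6 (20.2% and 19.7%, 39.9%; median 0.23). At 2 h 2 were higher and 16 lower (14% and 16.2%, 30.2%; median -0.33). The groups did not overlap upward for 7 members at 24 h and 8 at 12 h, against 9.18% and 7.59% of all genes. In either direction 23.1%, 39.7%, 47.4% and 39.7% of members were called at 2, 6, 12 and 24 h, near or below the shares of all genes except at 12 h. The 2 lower at 24 h were Mrpl24 and Mrpl58, and Mrpl58 was at -0.94 ± 0.29 (SE; adjusted p = 0.00725) with all libraries but at -0.03 ± 0.16 (SE; adjusted p = 0.872) in the reduced set. All 29 members higher in WT at 24 h were also higher in KO, and 34 were called higher in KO only; the difference of the changes themselves is given with the genotype comparisons. Fitted on the 10 libraries of each comparison alone, WT gave no call at 2 h, 3 each at 6 and 12 h, and 8 at 24 h.

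In the reduced set of 39 libraries the WT course was larger. There 75 members were higher and 1 lower at 24 h (66.8% of all genes called), with a median of 1.26, and 74 were higher at 12 h and none lower (62.6%; median 1.45). At 6 h 69 were higher and 3 lower (60.4%; median 1.04), and at 2 h 17 and 18 (47%; median 0.06). The WT log2 change of Mrps6 at 6 h was 3.38 ± 0.23 (SE; adjusted p = 8.35e-15) in that set and 1.88 ± 0.34 (SE; adjusted p = 2.95e-05) with all libraries. For Mrpl12 at 24 h the values were 2.59 ± 0.20 (SE; adjusted p = 1.17e-13) and 0.90 ± 0.33 (SE; adjusted p = 0.0251).

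The libraries behind this can be seen for single members. Mrpl12 in WT was 144, 43.4, 314, 125 and 46.5 CPM at 0 h and 136, 270.4, 268, 293 and 286 at 24 h. Mice 2 and 5 were below every KO mouse at 0 h, and mouse 3 was above every KO value at any time. Mrps6 in WT was 23.0, 13.6, 81.5, 21.4 and 15.9 CPM at 0 h and 36.0, 155, 164, 59.3 and 155 at 6 h, with mice 1 and 4 the lowest at 6 h. Mrps12 in WT was 49.7, 23.6, 164, 43.9 and 25.6 CPM at 0 h and 44.0, 13.4, 21.8, 33.0 and 15.8 at 2 h, a change of -1.26 ± 0.30 (SE; adjusted p = 0.00144) with all libraries and -0.58 ± 0.17 (SE; adjusted p = 0.0069) in the reduced set. The falls called at 2 h in Mrps16 (-1.45), Mrpl52 (-1.17), Mrps26 (-1.13) and Mrpl14 (-1.13) were -0.25, 0.01, -0.42 and -0.41 in the reduced set. With the mouse as a replicate block the Mrpl52 change was -0.88 (adjusted p = 0.0575). Mrpl9 and Mrpl32 rose at 2 h in WT, by 0.38 ± 0.11 (SE; adjusted p = 0.00535) and 0.38 ± 0.14 (SE; adjusted p = 0.0305), as in KO.

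KO and WT were compared at each time in the same fit, where libraries of a mouse count as independent. Before activation 7 members were lower in KO and none higher (5.59% and 2.34% of all genes, 7.93% in either direction), with a median log2 difference of -0.45 against -0.15 for all genes. The largest differences were those of Mrpl14, Mrpl54, Mrps11, Mrps26 and Mrps30, and no member's groups were free of overlap (1.54% of all genes above and 1.56% below). In the reduced set the direction turned: 21 members were higher in KO and none lower (16.5% of all genes called), with a median of 0.33. Mrpl14, the member with the largest difference, was 31.6, 12.9, 89.7, 28.4 and 12.1 CPM in WT and 13.1, 14.1, 13.5, 16.4 and 17.4 in KO. The KO values lay within the WT range, and its difference was -1.22 ± 0.32 (SE; adjusted p = 0.0176) with all libraries and 0.23 ± 0.13 (SE; adjusted p = 0.224) in the reduced set. Mrpl12 went from -0.89 ± 0.33 (SE; adjusted p = 0.079) to 0.66 ± 0.17 (SE; adjusted p = 0.0114). No single direction of the genotype difference at 0 h therefore held across the sets of libraries. Fitted on the compared libraries alone, no member was called at 0 h.

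At 2 h 6 members were lower in KO and none higher (8.9% and 2.9%, 11.8% in either direction), with the largest differences in Mrpl27, Mrpl28, Mrps27, Mrps2 and Mrpl34. In the reduced set 2 were lower and 1 higher (9.02%), and fitted on the compared libraries alone none was called. No member was called at 6 h (2.53% of all genes higher and 7.59% lower, 10.1% in all) or at 12 h (5.54% and 7.55%, 13.1% in all) by edgeR with all libraries. At an unadjusted p under 0.05 there were 7 and 5, with the shares of all genes at that threshold not given here, and DESeq2 called 0 and 1. At 6 h all KO values lay below all WT values for 12 members and above them for none, against 5.51% and 5.5% of all genes. In the reduced set 12 were lower in KO at 6 h and none higher (11.6%), and at 12 h 44 were lower and 2 higher (37.2%), with a median of -0.35. Among the lower at 12 h in that set were Mrps14 at -0.62 ± 0.14 (SE; adjusted p = 0.00059) and Mrpl41 at -0.57 ± 0.11 (SE; adjusted p = 0.00017), and the 2 higher were Mrpl3 at 0.25 ± 0.07 (SE; adjusted p = 0.00912) and Mrps26 at 0.38 ± 0.14 (SE; adjusted p = 0.0263).

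Single libraries can be seen for Mrpl41. It was 50.0, 45.2, 48.8, 46.7 and 44.8 CPM in KO at 12 h and 38.5, 70.1, 58.4, 53.4 and 81.6 in WT. WT mice 2 to 5 were above all KO mice, mice 2 and 5 by the most, and mouse 1 was below them. For the level summed over all 78 members WT mouse 4 (5196 CPM) was instead below every KO mouse (5226 to 5788) at 12 h. Mrps14 and Mrpl3 were named here after their values were seen.

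At 24 h KO and WT gave no calls among the members. No member was called by edgeR with all libraries (0.00752% of all genes higher and 0.0376% lower, 0.0451% in all), with 0 at an unadjusted p under 0.05, 0 by DESeq2 and 0 in the reduced set (0.0593%). The log2 differences ran from -0.17 to 0.29, with a median of 0.10. The SE of these differences ran from 0.106 to 0.464 over the members, with a median of 0.239, and the bounds at 2 SE reached -1.09 and 0.94 for the least precise. Mrpl12 was 136, 270.4, 268, 293 and 286 CPM in WT and 268, 288, 272, 282 and 278 in KO at 24 h, and WT mouse 1 lay far below the other 9 libraries.

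**Figure D5:**
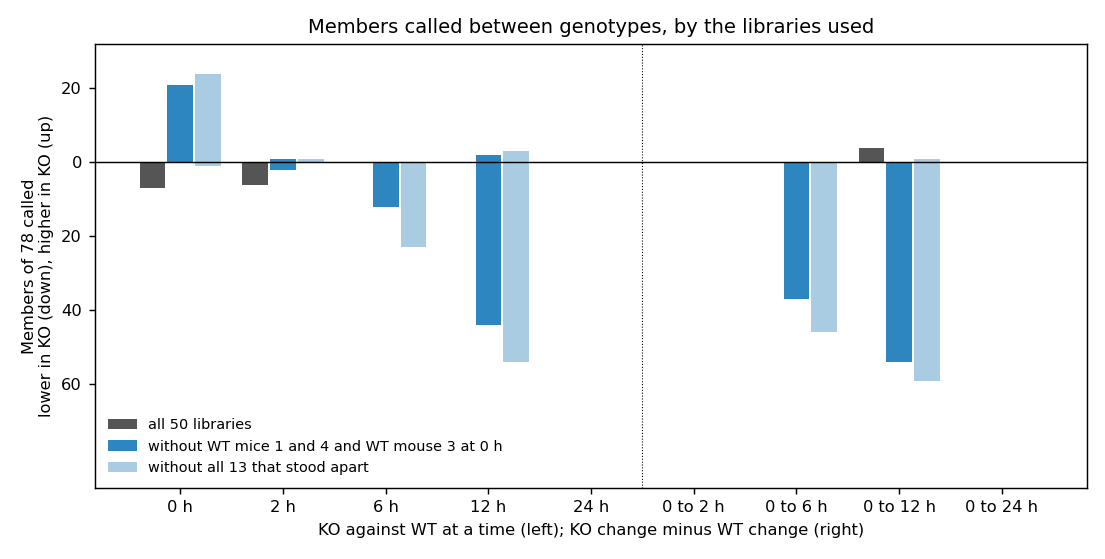
Number of the 78 members called (y axis; upward higher in KO, downward lower in KO) for KO against WT at each time on the left and for the KO change minus the WT change on the right. Grey bars use all 50 libraries, dark blue leaves out WT mice 1 and 4 and WT mouse 3 at 0 h, and light blue leaves out all 13 libraries that stood apart; at 0 h and from 0 to 12 h the grey and blue bars point in opposite directions.

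The difference between the KO and WT changes from 0 h was tested directly. From 0 to 12 h it was called for 4 members, all with the signed KO change above the WT change (5.54% of all genes higher and 1.96% lower, 7.5% in either direction). They were Mrpl17 at 1.26 ± 0.39 (SE; adjusted p = 0.0382), Mrps26 at 1.08 ± 0.34 (SE; adjusted p = 0.0434), Mrps30 at 0.91 ± 0.27 (SE; adjusted p = 0.0287) and Mrpl37 at 0.66 ± 0.20 (SE; adjusted p = 0.0351). For Mrps26 the WT change was a called fall, and its KO change was not called. Larger and smaller changes are meant with their sign here and below. Scaled by library totals, 1 member was called with the smaller change in KO and none with the larger. Fitted on the compared libraries alone, no member was called. In the reduced set 54 members had the smaller change in KO and none the larger (29.3% of all genes called), with a median of -0.65. Among them were Mrps22 at -1.04 ± 0.22 (SE; adjusted p = 0.000611) and Mrpl12 at -0.87 ± 0.22 (SE; adjusted p = 0.00256), and there the 4 named above lay between -0.09 and 0.23.

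No member was called for the difference of changes from 0 to 2, 6 or 24 h by edgeR with all libraries (0.015%, 2.47% and 0.0752% of all genes; for 6 h 2.09% higher and 0.376% lower). At an unadjusted p under 0.05 there were 2, 14 and 26 members, and DESeq2 called 0, 2 and 0. The shares of all genes at the unadjusted threshold are not given here, so these counts do not set the members apart. With the mouse as a replicate block 2 members were called from 0 to 6 h. In the reduced set 37 members had the smaller change in KO from 0 to 6 h and none the larger (15.9%), and none was called from 0 to 2 h (0.785%) or from 0 to 24 h (0.511%). The WT and KO changes of a member at different times share the 0 h libraries, so the 6 h and 12 h results are not independent of each other.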

How the data were processed

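The deposited table, made by the authors, holds raw read counts per Ensembl gene for the 50 libraries. Per the labels' protocols the libraries were Illumina TruSeq stranded mRNA, read as 50 nt single ends on a HiSeq4000. Per the submitters' processing notes CASAVA 1.8.2, STAR 2.4 and featureCounts 1.4.6 were used with GRCm38; the annotation release, the strand setting and the treatment of reads with several matches are not given in the sources used here. No row lacked a gene identifier. Symbols were matched through GENCODE M21 for 21583 of 21647 rows, and the gene deleted in KO is not reported here.

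In R 4.3.3, genes were kept by edgeR 4.0.16's filterByExpr (minimum count 10, total 15), scaled by TMM and fitted with robust quasi-likelihood on all 50 libraries with 1 mean per group (40 residual degrees of freedom). Libraries of the same mouse count as independent in this fit. Contrasts compared a later time with 0 h within a genotype, both genotypes at a time, and the changes of KO and WT with each other. P-values were adjusted by the Benjamini-Hochberg method over the 13294 genes tested, with a threshold of 0.05. Log2 changes are edgeR's fitted values with its default prior count, and their SE is the log2 change divided by the square root of the F statistic. The correlations of deviations between libraries used log2 CPM with a prior count of 2. CPM values use TMM-scaled library sizes, with no pseudocount. Library totals were 9571625 to 31293872 counts, median 23548632, and a member's lowest library held a median of 303.5 reads over the 78 members (0 for Mrps36). The calculations were tested on simulated counts, drawn independently and with a smaller spread than these data. That test does not measure false calls from libraries of the same mouse.

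Alternatives were library totals, no filter, DESeq2 1.42.0, limma 3.58.1 voom with the mouse as a random effect, the libraries compared alone, the mouse as a replicate block, each mouse left out, WT mice 1 and 4 left out, and the 0 h library of WT mouse 3 left out. Leaving out both of the last sets, or all 13 libraries that stood apart, was added after seeing the data. Mouse numbers pair the times within a genotype, since the labels give each mouse an id: deviations from the group means correlated on average by 0.415 to 0.638 in WT and 0.212 to 0.356 in KO. They do not pair the genotypes (-0.197 to 0.139). Named members were, per comparison, up to 5 of those called with the largest change each way, up to 5 called at no time, the 5 highest and 5 lowest per kb, those with a separate role and, per other list, up to 4 with the smallest p. The members and lists were chosen with earlier results of these data known.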

Additional observations from a re-analysis of the deposited data

Results flagged for a closer look

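Within groups of 5 libraries, 21 quantities (the sums of all 78, of the large and of the small subunit, and the levels of 18 members) were searched for a highest or lowest library that lies far from the other 4, by Dixon's criterion at 95%. Of 210 groups 31 held one, where chance gives about 1 in 20 for a single group. The groups share libraries and the sums contain the members, so the 31 are not independent and cannot be set against that share. WT mouse 1 at 24 h was the lowest library, with a summed level of 3945 CPM for all members, 2789 for the large and 1153 for the small subunit. It was also lowest there for Mrpl12 (136 CPM), Mrpl20 (83.9), Mrpl17 (56.0), Mrps18b (34.0), Mrps12 (43.3), Mrpl37 (100.1), Mrps26 (55.4), Mrps18a (55.0) and Mrps6 (62.2).

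WT mouse 3 at 0 h was the highest library of its group for the small subunit, at 2607 CPM. It was highest for Mrps6 (81.5 CPM), Mrps12 (164), Mrpl57 (104), Mrpl58 (299), Mrpl14 (89.7), Mrps26 (214) and Mrps18a (144). At 2 h it was highest for Mrps6 (45.1 CPM) and Mrpl9 (129). KO mouse 3 at 0 h was highest for Mrps34 (12.6 CPM), Mrpl32 (45.1), Mrpl9 (111) and Mrps26 (66.2). Single libraries apart were KO mouse 1 at 12 h for Mrps6 (124.5 CPM, high), KO mouse 5 at 12 h for Mrps18b (64.6, low) and Mrps18c (33.3, low), KO mouse 4 at 2 h for Mrpl57 (14.4, low) and WT mouse 4 at 6 h for Mrpl9 (112, low).

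The change from 0 to 12 h differed between KO and WT with all libraries for Mrpl17 (difference of log2 changes 1.26), Mrps26 (1.08), Mrps30 (0.91) and Mrpl37 (0.66). Without WT mice 1 and 4 and the 0 h library of WT mouse 3 these were -0.09, 0.23, 0.18 and -0.01, and none was called.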

How the results depend on the processing

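In KO at 12 and 24 h the count of members called in either direction (55, all higher, and 64, of which 63 higher) stayed within 1.5 times in every alternative run. Counts for KO at 2 and 6 h, for WT and for the genotypes depended on which libraries were used, and the cause was not tested.

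With all libraries the calls at 2, 6, 12 and 24 h were 18, 31, 37 and 31 in WT and 26, 41, 55 and 64 in KO. Between genotypes they were 7, 6, 0, 0 and 0 at 0, 2, 6, 12 and 24 h, and for the difference of changes 0, 0, 4 and 0. Without WT mice 1 and 4, WT at 2 h gave 47 (43 lower; 49.7% of all genes called). The genotypes gave 29 at 0 h (27 lower in KO; 22.4%), 0 at 2 h (4.1%) and 7 at 12 h (6 lower; 23%), and the difference of changes 2 at 6 h (both lower; 9.56%) and 8 at 12 h (4 each way; 20.5%). Without the 0 h library of WT mouse 3, WT gave 8 at 2 h (4 each way; 26.7%), 64 at 12 h (all higher; 40.6%) and 61 at 24 h (60 higher; 43.9%). The genotypes gave 1, 24, 2 and 1 at 0, 2, 6 and 12 h (all lower in KO; 12.1%, 17.1%, 15.5% and 18.6%), and the difference of changes 1 at 12 h (higher; 13.8%). Without both sets, WT gave 35, 72, 74 and 76 (17, 69, 74 and 75 higher; 47%, 60.4%, 62.6% and 66.8%) and KO 55 at 2 h (46 lower; 63.5%). The genotypes gave 21, 3, 12 and 46 at 0, 2, 6 and 12 h (21, 1, 0 and 2 higher in KO; 16.5%, 9.02%, 11.6% and 37.2%), and the difference of changes 37 at 6 h and 54 at 12 h (all lower; 15.9% and 29.3%). Without all 13 libraries that stood apart, WT gave 34, 73, 74 and 76 (13, 70, 74 and 75 higher; 49.1%, 66.9%, 68.9% and 73%), and KO 55 at 2 h (44 lower; 67.2%) and 63 at 6 h (59 higher; 74.6%). The genotypes gave 25, 1, 23 and 57 (24, 1, 0 and 3 higher in KO; 18.3%, 8.5%, 22.5% and 45.5%), and the difference of changes 46 and 60 at 6 and 12 h (0 and 1 higher; 20.7% and 35.5%). With only the libraries compared, WT gave 0, 3, 3 and 8 (all higher; 2.46%, 9.67%, 10.7% and 20.7%), KO 41 at 2 h (33 lower; 57.4%), the genotypes 0 at 0 h (0%), 0 at 2 h (0.0168%) and 12 at 12 h (9 lower; 29.9%), and the difference of changes 0 at 12 h (3.28%). With limma-voom, WT gave 9, 57 and 51 at 2, 12 and 24 h (2, 56 and 50 higher; 33.9%, 45.5% and 52.9%), the genotypes 0 at 0 h (5.97%) and 2 at 2 h (lower; 7.45%), and the difference of changes 1 at 6 h and 2 at 12 h (higher; 5.07% and 11.2%). With library totals the genotypes gave 0, 22, 1 and 1 at 0, 2, 6 and 12 h (all lower in KO; 3.48%, 14.8%, 11.1% and 14.4%) and the difference of changes 1 at 12 h (lower; 7.04%). With no filter the genotypes gave 4 at 0 h (lower; 3.41%), and with DESeq2 1 at 12 h (higher; 17.6%) and the difference of changes 2 at 6 h (higher; 4.77%). With the mouse as a replicate block the difference of changes gave 2 at 6 h (higher; 5.07%), and no other count of calls moved by over 1.5 times.

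Leaving out each mouse in turn gave 5 to 30, 18 to 43, 28 to 64 and 24 to 62 calls in WT at 2, 6, 12 and 24 h. In KO it gave 13 to 34, 36 to 46, 41 to 60 and 58 to 68. Between genotypes it gave 0 to 36, 0 to 32, 0 to 8, 0 to 4 and 0 to 0, and for the difference of changes 0 to 0, 0 to 4, 0 to 9 and 0 to 0. In WT at 2 h there were 30 calls without WT mouse 1 and 5 without WT mouse 3, at 6 h 18 without WT mouse 5, and without WT mouse 3 64 at 12 h and 62 at 24 h. In KO at 2 h there were 14 without mouse 3 and 13 without mouse 4. Between genotypes at 0 h there were 36 without WT mouse 2, 34 without WT mouse 5 and 0 to 2 without most others; at 2 h 27, 32 and 30 without WT mouse 2, 3 or 5 and 0 to 2 without any other mouse. At 6 h there were 8 without WT mouse 3, and at 12 h 1 without WT mouse 1 and 4 without WT mouse 3. The difference of changes gave 4, 4 and 3 at 6 h without WT mouse 2, 3 or 5, and at 12 h 8 and 9 without WT mouse 2 or 5, 2 without WT mouse 1, 2 without WT mouse 4 and 0 without any KO mouse. The shares of all genes called with a mouse left out are not given here. These counts therefore show how the calls moved, and not whether members differed from genes at large.

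Of the 100 changes of members named by the rule, 13 turned sign in some alternative. Without WT mice 1 and 4 and the 0 h library of WT mouse 3, the KO to WT difference at 0 h was 0.230 for Mrpl14, 0.341 for Mrpl54, 0.188 for Mrps11, 0.150 for Mrps26 and 0.00864 for Mrps30. There the difference of changes at 12 h was -0.0892 for Mrpl17 and -0.0108 for Mrpl37, and the WT change was 0.00529 for Mrpl52 at 2 h, 0.236 for Mrpl14 at 6 h and 0.0155 for Mrps26 at 12 h. Without all 13 libraries, the KO to WT difference was 0.284 for Mrpl14, 0.3695 for Mrpl54, 0.124 for Mrps11 and 0.0580 for Mrps26 at 0 h, and 0.0863 for Mrpl28 and 0.0476 for Mrps27 at 2 h. The WT change of Mrpl14 at 6 h was then 0.252 and the difference of changes of Mrpl17 at 12 h -0.0638. The WT change of Mrps16 at 6 h was 0.0660 without the 0 h library of WT mouse 3 and 0.137 without WT mouse 3, and that of Mrpl52 at 2 h was 0.0399 without WT mouse 3. Over the mice left out in turn, the change of Mrpl52 ran from -1.535 to 0.0399 and that of Mrps16 from -1.632 to 0.137.

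With the replicate block 87 of 90 such changes kept their call; 3 in WT did not, Mrpl52 at 2 h at -0.88 (edgeR, adjusted p = 0.0575), Mrps16 at 6 h at -0.83 (adjusted p = 0.0576) and Mrpl14 at 6 h at -0.73 (adjusted p = 0.0561). KO against WT at a time has no such fit, since each mouse has 1 genotype. Depth limits scarce members such as Mrps36, Mrps34 and Mrpl23, and overlapping exons limit Mrps34, Mrps25 and Mrpl19. Mrps36, Mrpl23 and Mrpl48 have annotated pseudogenes. How reads with several matches were counted is not given, so the levels of these members are uncertain.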

Other observations

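Genes of mitochondrial transcription and of the nucleoid, the complex that packs mitochondrial DNA, were called in both directions in KO. At 24 h 9 of 13 were higher and 3 lower than at 0 h (median log2 change 0.51), against 30.7% and 28% of all genes. Lonp1, a matrix protease, was at 1.77 ± 0.22 (SE; adjusted p = 2.15e-08). The helicase gene Twnk, whose exons overlap those of Mrpl43, was at 1.11 ± 0.22 (SE; adjusted p = 5.33e-05), Tfam, which packs mitochondrial DNA, at 0.51 ± 0.12 (SE; adjusted p = 0.000468), and Polg2, the accessory subunit of the mitochondrial DNA polymerase, at -0.77 ± 0.18 (SE; adjusted p = 0.000353). Differences between the lists were not tested.

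At 2 h in KO, when 23 of 78 members were lower and 3 higher, 15 of 78 respiratory chain and ATP synthase genes were lower and 2 higher (median -0.35). The shares of all genes there were 19.6% lower and 20.3% higher. None of 84 cytosolic ribosomal protein genes was lower and 8 were higher (median 0.01), and of 27 import genes 2 were lower and 2 higher (median -0.13). At 12 h 25 of the 27 import genes were higher and none lower (median 1.04), against 55 and 0 of the 78 members. The shares of all genes were 27.8% higher and 25% lower.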
